A study of Homo sapiens with 3 samples.

Results

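The 960 HindIII fragments of chromosome 2 with a midpoint in chr2:212615943-215499999 (GRCh37) form the far end of the territory that was screened around the breast cancer risk locus 2q35. They were chosen by position alone, out of 3041 target fragments of 2q35 and 17969 target fragments around all 6 captured regions. The stretch starts 2.12 Mb from the captured region, chr2:217609776-218362744, and ends 4.99 Mb from it, on the centromeric side. ERBB4, IKZF2 and SPAG16 lie in it. With 227 captured fragments, the 960 fragments gave 217920 pairs whose contacts were counted.

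In Capture Hi-C, chromatin is fixed and cut with HindIII, neighbouring ends are joined, and probes pull out the joined molecules that carry a region of interest. The count of such molecules measures how often 2 fragments meet. It was run on BT483, a breast cancer line from a primary invasive ductal carcinoma, on SUM44, a breast cancer line from a pleural effusion, and on GM06990, a lymphoblastoid line from B lymphocytes. Each line was deposited as 1 sample with 2 replicate count columns, 6 in all. All cells were fixed with 2% formaldehyde for 5 min. BT483 nuclei were released with trypsin, and those of SUM44 and GM06990 with a dounce homogeniser. BT483 medium held insulin and 20% fetal bovine serum, SUM44 medium 1 nM estradiol and 10% serum, and GM06990 medium 15% serum. Handling, medium and line cannot be told apart, each group is 1 established line, and no source used here says whether the replicates came from separate cultures, so that p-values measure the spread between the columns only.

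Chromatin contacts fall steeply with the distance along a chromosome, and at several megabases each pair of fragments meets rarely. What remains above that fall is set, among other things, by compartments, in which stretches of like activity meet more often, and by single loops between regulatory elements and promoters. Risk loci without coding variants are screened for such contacts to find genes whose promoters they touch. ERBB4 encodes a receptor tyrosine kinase of the EGF receptor family that binds neuregulins and acts, in the mouse, in the differentiation of the lactating mammary gland. IKZF2 encodes Helios, an Ikaros family zinc finger factor of T lymphocytes. SPAG16 encodes a protein of the central apparatus of the sperm axoneme. In the RefSeq gene order VWC2L follows SPAG16, and then BARD1, which encodes the partner of BRCA1.

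To show the promoters of the 3 named genes, the 250 bases before 1 start of each are given, from RefSeq (GRCh38.p14), 5′ to 3′ on the strand of the gene, with each CG in capitals.
ERBB4: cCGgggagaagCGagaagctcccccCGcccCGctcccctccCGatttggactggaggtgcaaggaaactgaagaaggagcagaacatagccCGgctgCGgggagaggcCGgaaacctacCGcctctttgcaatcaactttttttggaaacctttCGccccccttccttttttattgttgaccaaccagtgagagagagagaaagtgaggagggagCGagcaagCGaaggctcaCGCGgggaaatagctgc
IKZF2: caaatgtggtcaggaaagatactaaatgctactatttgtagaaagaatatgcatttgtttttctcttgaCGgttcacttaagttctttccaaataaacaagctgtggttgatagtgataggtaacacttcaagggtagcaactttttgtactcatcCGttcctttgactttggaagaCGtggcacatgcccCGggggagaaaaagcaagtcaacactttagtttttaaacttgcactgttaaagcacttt
SPAG16: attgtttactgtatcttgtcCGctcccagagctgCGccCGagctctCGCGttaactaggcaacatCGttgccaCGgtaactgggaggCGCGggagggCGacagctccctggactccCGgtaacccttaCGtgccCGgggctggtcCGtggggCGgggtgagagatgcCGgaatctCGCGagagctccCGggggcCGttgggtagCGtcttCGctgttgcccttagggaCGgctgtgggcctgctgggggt
The SPAG16 promoter held 23 CG at 65.2% G and C, the ERBB4 promoter 14 CG at 57.2%, and the IKZF2 promoter, the first of 2 starts in the table, 4 CG at 38.0%. The median of 35116 promoters was 11 CG. None of the 3 holds the HindIII site AAGCTT, which 5.02% of all promoters of this length hold, so each of these windows would sit within 1 fragment. RefSeq positions were in another build than the contact counts, so no fragment or 50 kb window below is given to a gene.

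The stretch received 2686 and 22133 contacts in the BT483 replicates, 26128 and 22049 in SUM44, and 8712 and 9349 in GM06990. BT483 replicate 1 was by far the shallowest: its median fragment had 2 contacts, against 22 in BT483 replicate 2, 26 and 22 in SUM44, and 8 and 9 in GM06990. In that replicate 106 of 960 fragments had no contact, against 1 in BT483 replicate 2, 2 and 3 in SUM44, and 21 and 10 in GM06990. A single fragment, chr2:214434329-214436220, had no contact in any of the 6 columns. Fragments were 6 to 32188 bases long. The 45 fragments of at most 100 bases had a median of 30 contacts over the 6 columns together, the 222 of 101 to 1000 bases 83, the 444 of 1001 to 4000 bases 103, the 185 of 4001 to 8000 bases 97 and the 64 longer ones 72. The shortest fragments were thus the thinnest, and the count did not rise steadily with length.

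The stretch took a larger part of the contacts in the breast lines than in GM06990 once it was set against the other side of the captured region. Per fragment it had 0.993 and 1.07 times the contacts of the 914 telomeric fragments at like distance in BT483, 1.62 and 1.53 times in SUM44, and 0.654 and 0.762 times in GM06990. The means were 1.03 ± 0.052 in BT483, 1.58 ± 0.062 in SUM44 and 0.708 ± 0.076 in GM06990 (SD, n = 2 each). All 4 breast replicates lay above both GM06990 replicates, and the SUM44 replicates above both of BT483. The two-sided exact permutation test of 4 breast against 2 GM06990 replicates gave p = 0.133, which is the smallest that this design allows, and 2 against 2 cannot go below 0.333.

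Both sides moved in this ratio. Relative to the contacts expected from distance and from the capture efficiency of each captured fragment, the stretch stood at 1.01 and 1.04 in BT483, at 1.18 and 1.15 in SUM44 and at 0.842 and 0.887 in GM06990. The telomeric side at like distance stood at 1.02 and 0.972 in BT483, at 0.724 and 0.747 in SUM44, and at 1.29 and 1.16 in GM06990. The order of the lines was thus opposite on the other side. When the distance background was fitted to the centromeric side alone, the levels of the stretch drew together, at 1.02 ± 7.6e-05 in BT483, 0.999 ± 0.0027 in SUM44 and 1.04 ± 0.0068 in GM06990 (SD, n = 2 each). That fit rests on the 960 fragments of the stretch and the 677 centromeric ones nearer to the captured region, so it holds the stretch near 1 in every line. It therefore cannot show whether the order of the lines depended on the telomeric side entering the background.

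As a share of all near cis contacts, meaning those within 5 Mb of the captured region, the stretch held 10.3% and 12.1% in BT483, 7.39% and 6.98% in SUM44, and 7.01% and 8.18% in GM06990. On this measure BT483 lay above both other lines and SUM44 did not stand apart from GM06990, whose replicates enclosed one of those of SUM44. The widest exact Clopper-Pearson 95% interval of these shares was that of BT483 replicate 1, from 9.9% to 10.6%, and covers counting error only.

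Contacts from the 5 captured regions of other chromosomes give a measure of the same windows that does not depend on distance. Per 50 kb window they met the stretch 1.02 and 1.02 times as often as the telomeric side in BT483, 0.819 and 0.835 times in SUM44, and 0.825 and 0.871 times in GM06990. Relative to the median window of chromosome 2 they met the stretch at 1.02 and 1.34 in BT483, 1.25 and 1.28 in SUM44, and 1.13 and 1.09 in GM06990, with the BT483 replicates on both sides of the other lines. In the ratio of the sides SUM44, which had the highest value from the 2q35 region, was with GM06990 among the lower lines here. The number of copies of these segments in each line was not measured, and its part in the ratios was not tested beyond these values.

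**Figure D1:**
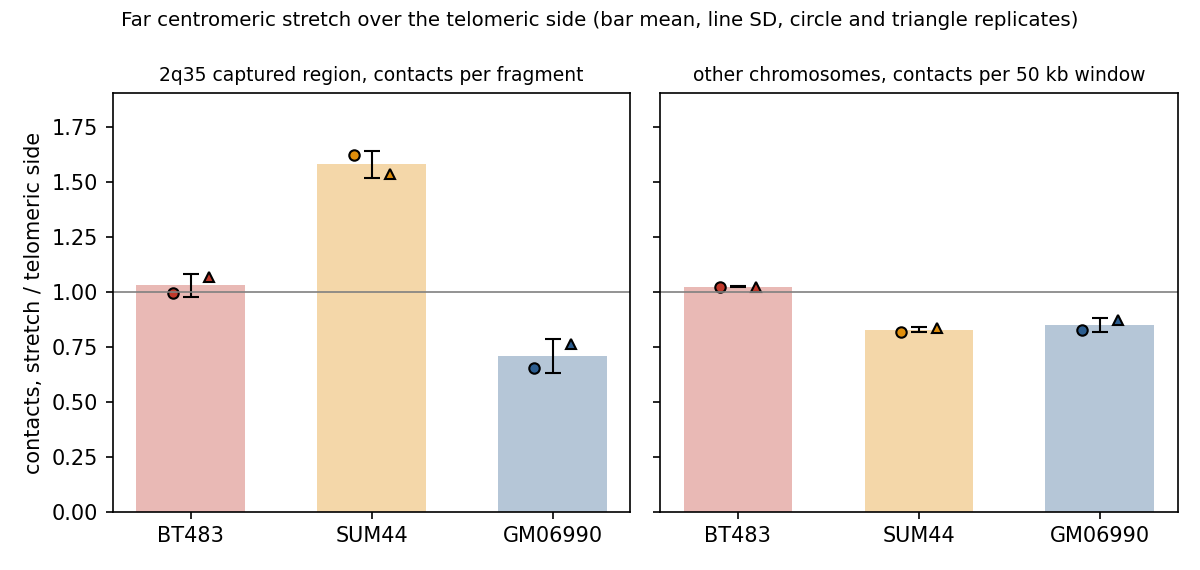
Contacts of the far centromeric stretch divided by those of the telomeric side at like distance, from the 2q35 captured region (left, per fragment) and from 5 captured regions of other chromosomes (right, per 50 kb window). Bars are means of 2 replicates, lines the SD, circles replicate 1 and triangles replicate 2. From 2q35, SUM44 averaged 1.58, BT483 1.03 and GM06990 0.708. From other chromosomes BT483 was at 1.02 and the other lines lay between 0.819 and 0.871.

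Along the stretch, all 3 lines had the same feature: a block of raised contact in its middle. The profile was read in 58 windows of 50 kb as observed over expected contacts. The block was drawn after the profile had been seen, from the first to the last window with a mean over the lines of at least 1.2, and spans chr2:213500001-214200000, which is 14 windows and 236 fragments at 3.41 to 4.11 Mb from the captured region. In the block BT483 had 1.41 and 1.41 times the expected contacts, SUM44 1.57 and 1.57 times, and GM06990 1.39 and 1.44 times. In 12 of its 14 windows all 6 columns lay above 1. In the 18 windows on its centromeric flank, and in the 26 on its telomeric flank, no window had all 6 columns above 1. The block was drawn on the mean of these same columns, so the counts describe it and carry no test.

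With the background fitted to both sides, the flanks, more than the block, set the lines apart. The centromeric flank, chr2:212615943-213500000, stood at 0.807 ± 0.026 in BT483, 1.10 ± 0.025 in SUM44 and 0.635 ± 0.070 in GM06990 (SD, n = 2 each). Of its 18 windows, 15 lay below 1 in both replicates in BT483 and 5 in SUM44, against all 18 in GM06990. The telomeric flank, chr2:214200001-215500000, stood at 0.981 ± 0.025 in BT483, 1.01 ± 0.022 in SUM44 and 0.757 ± 0.0026 in GM06990. Of its 26 windows, 9 lay below 1 in both replicates in BT483, 13 in SUM44 and 23 in GM06990. Which segment set the lines apart rested on the distance curve. The curve of the centromeric side alone holds the mean of the stretch near 1 in every line. Fitted to the centromeric side alone, it put the block at 1.38 ± 0.024 in BT483, 1.30 ± 0.015 in SUM44 and 1.69 ± 0.041 in GM06990, so GM06990 was then the highest there. The centromeric flank was then at 0.809 ± 0.011 in BT483, 0.905 ± 0.0057 in SUM44 and 0.713 ± 0.017 in GM06990, in the same order as before but closer together. The telomeric flank was at 0.979 ± 0.0028 in BT483, 0.914 ± 0.0093 in SUM44 and 0.962 ± 0.0078 in GM06990.

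The relief of the block can be given as a ratio within each column, which needs no scaling between libraries but still rests on the distance curve. The block over its centromeric flank was 1.75 ± 0.050 in BT483, 1.43 ± 0.028 in SUM44 and 2.24 ± 0.19 in GM06990 (SD, n = 2 each). Over its telomeric flank it was 1.44 ± 0.031 in BT483, 1.55 ± 0.029 in SUM44 and 1.87 ± 0.042 in GM06990. With the curve of the centromeric side alone, the block over its centromeric flank was 1.71 ± 0.053 in BT483, 1.44 ± 0.026 in SUM44 and 2.38 ± 0.12 in GM06990. Over its telomeric flank it was then 1.41 ± 0.029 in BT483, 1.42 ± 0.031 in SUM44 and 1.76 ± 0.029 in GM06990. GM06990 had the steepest relief on both sides of the block under both curves, and SUM44 the flattest toward the centromere. Toward the captured region BT483 was below SUM44 with the curve of both sides, and within the replicate spread of it with the other. The edges of the block were set on these same values, so the ratios describe it and carry no test.

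Trans contacts, which had no part in drawing the block, showed less of it than near cis contacts. Per fragment, the captured regions of other chromosomes met the block 1.12 ± 0.042 times as often as the centromeric flank in BT483, 1.02 ± 0.13 times in SUM44 and 1.21 ± 0.18 times in GM06990 (SD, n = 2 each). Against the telomeric flank the ratios were 1.03 ± 0.15 in BT483, 0.974 ± 0.17 in SUM44 and 1.15 ± 0.079 in GM06990. In SUM44 the replicates fell on both sides of 1 in both ratios. These rest on 217 to 928 trans contacts of the block per column.

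**Figure D2:**
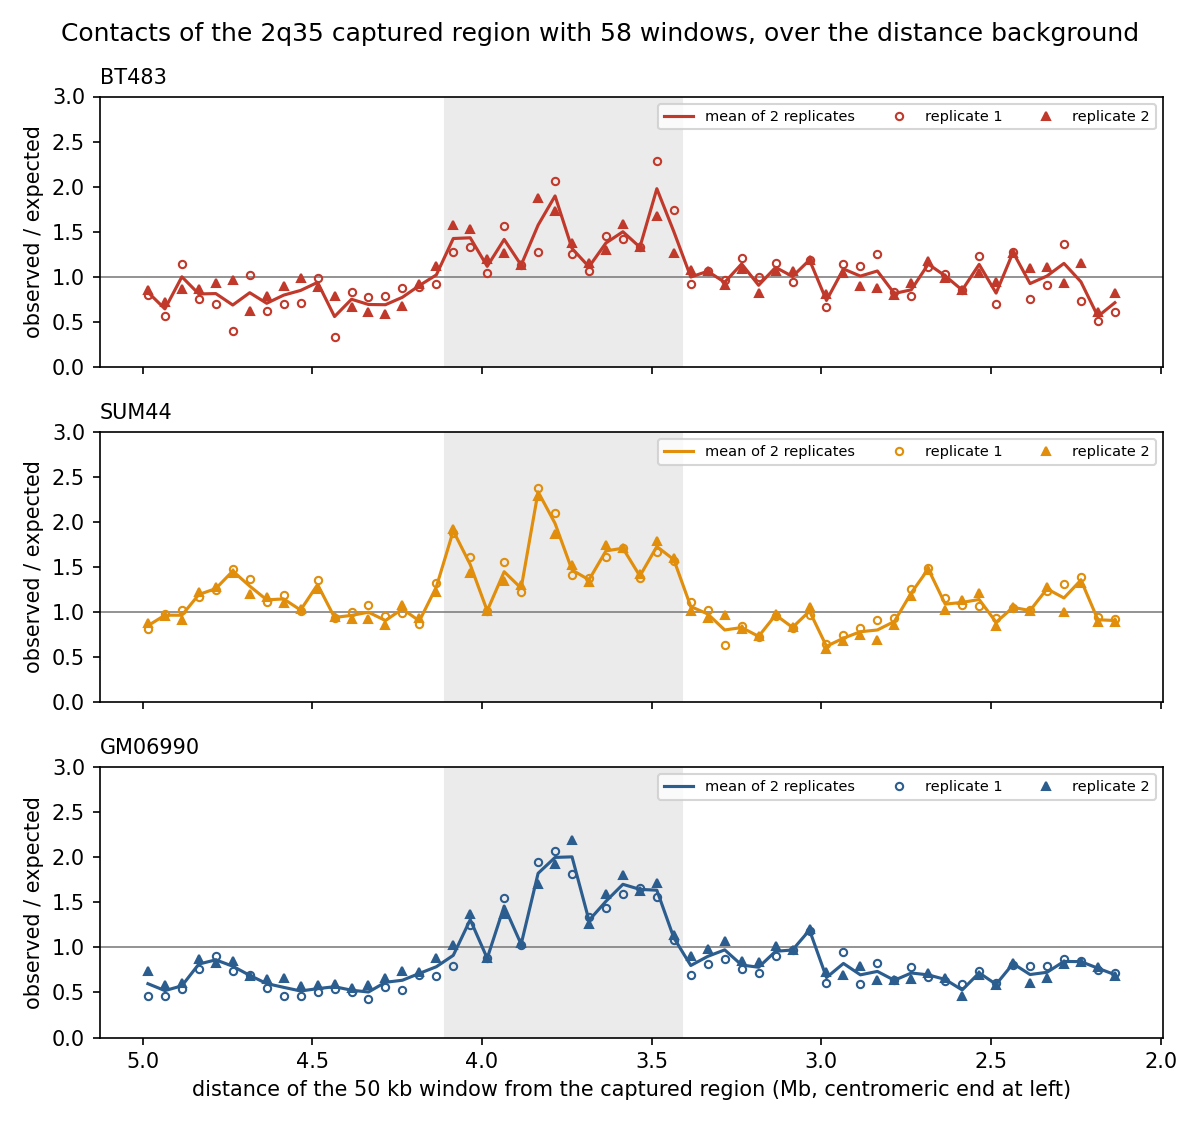
Observed over expected contacts of the 2q35 captured region in 58 windows of 50 kb, by distance from the captured region in Mb, 1 panel per line. Lines are means of 2 replicates, circles replicate 1, triangles replicate 2, and the grey band is the raised block of 14 windows. The band is raised in every panel, and outside it the GM06990 values mostly lie below 1.

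Within the block the 5 windows highest over the 3 lines were chr2:213750001-213800000, chr2:213800001-213850000, chr2:213850001-213900000, chr2:214000001-214050000 and chr2:214100001-214150000. The highest of them, chr2:213800001-213850000, held 74 and 494 contacts in BT483, 605 and 462 in SUM44 and 279 and 264 in GM06990. That was 2.07 and 1.73 times the expected count in BT483, 2.10 and 1.86 times in SUM44 and 2.06 and 1.93 times in GM06990, and the lines overlapped fully. Its neighbour chr2:213750001-213800000 had 1.28 and 1.87 in BT483, 2.38 and 2.29 in SUM44 and 1.94 and 1.70 in GM06990. There the SUM44 replicates were above all others. In the next window on the telomeric side, chr2:213850001-213900000, the order turned: 1.26 and 1.38 in BT483, 1.41 and 1.52 in SUM44, and 1.82 and 2.19 in GM06990, with both GM06990 replicates on top. Over the stretch SUM44 was highest at chr2:213750001-213800000 in both replicates, and GM06990 at chr2:213800001-213850000 in replicate 1 and chr2:213850001-213900000 in replicate 2.

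The 3 lowest windows were chr2:214600001-214650000, chr2:213150001-213200000 and chr2:212650001-212700000, 1 in the telomeric and 2 in the centromeric flank. The first had 0.66 and 0.82 of the expected contacts in BT483, 0.65 and 0.60 in SUM44 and 0.61 and 0.72 in GM06990, so all lines shared this dip. The window chr2:212650001-212700000 had 0.57 and 0.73 in BT483, 0.98 and 0.95 in SUM44, and 0.46 and 0.58 in GM06990, so SUM44 did not share its dip.

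Replicate profiles over the 58 windows had a Pearson r of 0.724 in BT483, 0.950 in SUM44 and 0.942 in GM06990. Between lines r was 0.700 for BT483 and SUM44, 0.818 for BT483 and GM06990, and 0.699 for SUM44 and GM06990. Neighbouring windows share captured fragments and a distance curve, so these describe the profiles only. BT483 resembled GM06990 in shape at least as much as it resembled SUM44, although the shallow BT483 replicate 1 enters both values.

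The raised block was seen from every part of the captured region. When the 227 captured fragments were split into 5 parts of 150 kb, the block stood at 1.30 to 1.54 in BT483, 1.41 to 1.85 in SUM44 and 1.24 to 1.63 in GM06990 (means of 2 replicates). The block over the centromeric flank was between 1.65 and 1.97 in BT483, between 1.31 and 1.48 in SUM44 and between 1.81 and 2.46 in GM06990 across the 5 parts. SUM44 therefore had the flattest relief toward the centromere from each part. Over the telomeric flank the block was 1.32 to 1.64 in BT483, 1.45 to 1.73 in SUM44 and 1.77 to 1.99 in GM06990, so BT483 and SUM44 overlapped there. The parts come from the same 2 columns per line and are not replicates, and the block was drawn on their sum.

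**Figure D3:**
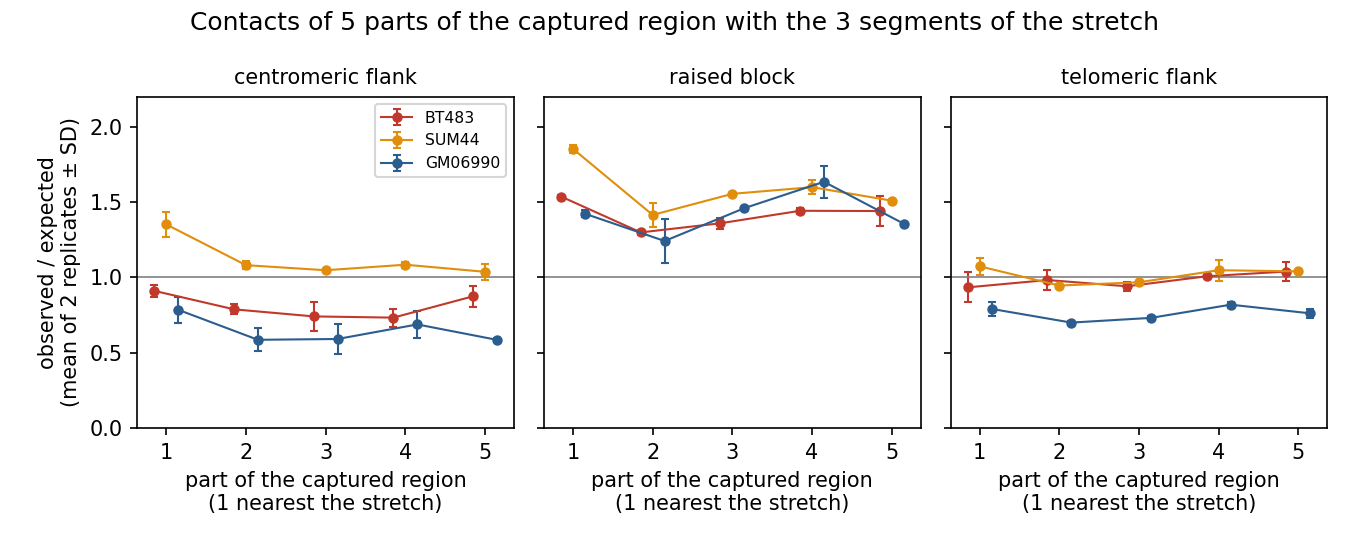
Observed over expected contacts of 5 parts of the captured region, 150 kb each and numbered from the end nearest the stretch, with the centromeric flank, the raised block and the telomeric flank. Points are means of 2 replicates and bars the SD. With the distance curve of both sides the 3 lines overlap in the block, between 1.24 and 1.85, and spread in the centromeric flank.

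Contacts came from many captured fragments: 225 of 227 had at least 1, and the 10 with the most held 9.96% of the 91057 contacts. Among the 210 with an expected count of at least 50, the highest ratio averaged over the lines was that of chr2:218173938-218182158, with 2.37 ± 0.26 in BT483, 1.41 ± 0.34 in SUM44 and 2.00 ± 0.14 in GM06990 (SD, n = 2 each) on 220 contacts. The next, chr2:218254339-218261778, had 836 contacts and was highest in SUM44, with 1.34 ± 0.46 in BT483, 2.35 ± 0.022 in SUM44 and 1.45 ± 0.0094 in GM06990. The other 3 of the 5 highest, chr2:218083664-218087853, chr2:218295541-218301734 and chr2:217929191-217935399, averaged 1.65 to 1.71 over the lines. Over the 210 fragments r was 0.784 between SUM44 and GM06990, but 0.236 between the BT483 replicates, so the order of captured fragments in BT483 was poorly measured.

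No single pair of a captured and a distal fragment stood out. Pairs were called at an adjusted p of at most 0.01 and at least 5 contacts, from a negative binomial distance background of each line. In the stretch 0 of 217920 pairs were called in BT483, 0 in SUM44 and 0 in GM06990, beside 0.000579%, 0.0% and 0.0% of all 690307 near cis pairs of 2q35. The highest count of any pair was 4 in BT483, 5 in SUM44 and 4 in GM06990, so the minimum of 5 alone barred every pair in BT483 and GM06990. At an unadjusted p under 0.05 there were 3146 of the 217920 pairs in BT483, 5024 in SUM44 and 2224 in GM06990. In each line this is a smaller share than 0.05, and the like share among all 690307 pairs was not counted. The pair nearest to a call, in SUM44, joined chr2:213756992-213758517 in the raised block with the captured fragment chr2:217758850-217763676, 4004 kb away, by 2 and 3 contacts where 0.0905 were expected (adjusted p = 0.0453). The next 2, chr2:213687235-213689235 with chr2:217798337-217809691 and chr2:213513477-213517500 with chr2:217949755-217955319, had 5 contacts each and adjusted p of 0.0628 and 0.456. All 3 lay in the raised block. A Poisson background, which allows less spread, called 12 pairs of the stretch in SUM44 and 0 in the other lines. Among all 690307 pairs it called 2951 in SUM44, 231 in BT483 and 95 in GM06990, so calls were rarer in the stretch than elsewhere. At an adjusted p of at most 0.05 the negative binomial background called 1 pair of the stretch in SUM44, the one named first, and 0 in the other lines. Among all 690307 pairs it then called 16 in SUM44, 7 in BT483 and 1 in GM06990.

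Differences between lines were tested with edgeR's quasi-likelihood F test and Benjamini-Hochberg adjustment over all 605 windows of the 3 risk loci, with the expected count as offset. All 58 windows of the stretch entered the test. In SUM44 33 windows were higher and 1 was lower than in GM06990, which is 56.9% higher and 1.72% lower, beside 28.3% higher and 31.1% lower among all windows. In BT483 14 windows were higher and 1 was lower than in GM06990, which is 24.1% and 1.72%, beside 18.5% higher and 14.7% lower among all. Called windows were thus about as frequent in the stretch as elsewhere, 58.6% against 59.3% in SUM44 and 25.9% against 33.2% in BT483, and it was their direction that was one-sided. The median change over the 58 windows was 0.48 in SUM44 and 0.32 in BT483 on the log2 scale, beside -0.05 and -0.01 over all windows. Both comparisons use the same 2 GM06990 columns.

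The one-sided direction rested on the scaling. With the distance background of the centromeric side alone, a setting added after the results had been seen, SUM44 had 12 windows higher and 17 lower, and BT483 4 higher and 6 lower. Among the 504 windows of that test, 132 were higher and 142 lower in SUM44, and 89 and 65 in BT483. That background is fitted mostly to the stretch itself, so a near balance of directions was built in. With near cis totals SUM44 had 10 higher and 15 lower, and BT483 38 higher and 0 lower. Among all 605 windows these were 115 and 214 in SUM44, and 174 and 78 in BT483. With TMM factors SUM44 had 16 higher and 3 lower, and BT483 0 higher and 4 lower, beside 163 and 172, and 186 and 155, among all. With DESeq2 size factors the counts were 23 higher and 1 lower in SUM44, and 0 higher and 6 lower in BT483, beside 184 and 161, and 180 and 176, among all. With trans totals they were 26 higher and 0 lower in SUM44, beside 244 and 0 among all. In BT483 they were then 0 in either direction, in the stretch and among all 605. In that setting the median change of all windows stood at 1.34 in SUM44 and at -0.18 in BT483. With near cis totals that median was -0.15 in SUM44 and 0.16 in BT483. Of the 34 windows called in SUM44 minus GM06990, 6 turned in sign with near cis totals, 6 with the centromeric background and 1 with trans totals. Relative to the median of all windows of each setting, the 14 windows higher in BT483 stayed above it in all 5 settings, as did 29 of the 33 higher in SUM44. In these windows the sign relative to that median was steadier than the calls, and the like share among other called windows was not counted. In BT483 no window was called higher in all 5 of these settings, which was fixed by trans totals, with 0 calls among all windows. The count with distance offsets depended on single columns as well, in the stretch and among all 605 windows. Without BT483 replicate 2 the median log2 change of the 58 windows in BT483 was 0.25. It was 0.20 without GM06990 replicate 1 and 0.35 without GM06990 replicate 2, beside 0.32 with all columns. Over all windows these medians were -0.003, -0.008 and 0.02. In SUM44 the median of the 58 was 0.42 without SUM44 replicate 1, beside 0.48 with all columns and -0.06 over all windows.

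**Figure D4:**
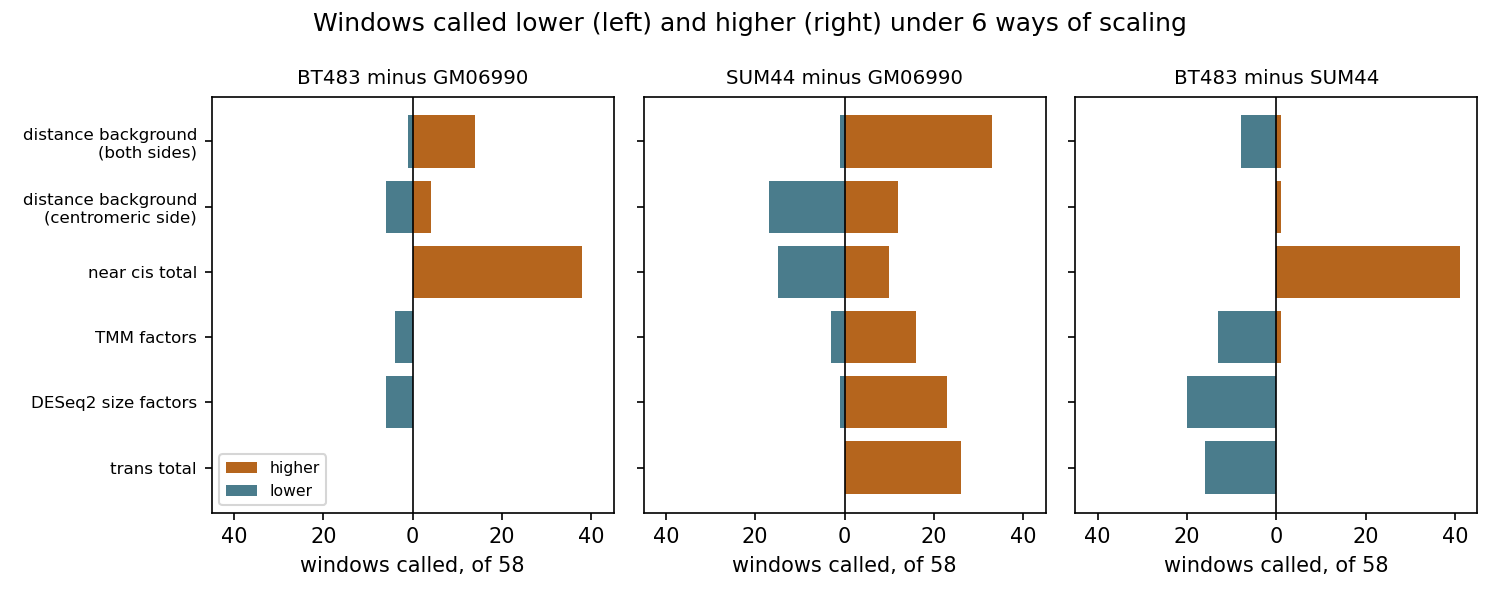
Number of the 58 windows called higher (right of 0) and lower (left of 0) by edgeR at an adjusted p under 0.05 under 6 ways of scaling, for each pair of lines. For BT483 minus GM06990 the bars pass from 38 higher with near cis totals to 6 lower with DESeq2 size factors. For SUM44 minus GM06990 higher windows are present in all 6, from 10 to 33.

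A set of 10 windows was higher in SUM44 than in GM06990 and called in the same direction in all 5 alternatives. Of these 7 lay in the centromeric flank, 1 at the edge of the block and 2 in the telomeric flank. The share of all 605 windows that did so was not counted, so the 10 are a description. Trans totals, 1 of the 5, called 244 of all 605 windows higher and 0 lower. The window chr2:213100001-213150000 held 443 and 351 contacts in SUM44, against 74 and 84 in GM06990. That was 1.36 and 1.25 times the expected count in SUM44, against 0.500 and 0.584 times in GM06990, a log2 change of 1.27 ± 0.16 (SE; edgeR adjusted p = 3.1e-05). The window chr2:214900001-214950000, in the telomeric flank, held 845 and 720 contacts in SUM44, against 182 and 204 in GM06990, a log2 change of 1.09 ± 0.13 (edgeR adjusted p = 2.4e-05). In the window chr2:213500001-213550000, the centromeric edge of the block, SUM44 stood at 1.87 and 1.93 times the expected count, against 0.796 and 1.03 times in GM06990. The log2 change there was 1.06 ± 0.16. BT483 was raised there too, at 1.28 and 1.58, and SUM44 was already at 1.33 and 1.23 in the window before, chr2:213450001-213500000. The edge was set on the mean over the lines and marks no start of the block in 1 line. The windows chr2:215000001-215050000 and chr2:212950001-213000000 changed by 1.07 and 0.93. Leaving out any 1 of the 6 columns kept the call of each of these 5 windows.

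With distance offsets the windows called higher in SUM44 ran together, but only part of each run held in the other scalings. In SUM44 the 18 windows of the centromeric flank and the first of the block, chr2:212600001-213550000, were all higher than in GM06990, with log2 changes of 0.34 to 1.27. A second run of 10 windows, chr2:214800001-215300000, was higher by 0.36 to 1.09. Between the runs the remaining 13 windows of the block had 1 called higher and 1 lower, and the middle of the telomeric flank was mostly not called. Of the 18 windows of the centromeric flank, 7 were called higher with near cis totals and 8 with the centromeric background. With TMM factors 11 were, with DESeq2 size factors 16 and with trans totals 17, and 0 were lower in each. Of the 26 windows of the telomeric flank, 13 were called higher with distance offsets. With near cis totals 2 were higher and 8 lower, with the centromeric background 3 and 9, with TMM factors 4 and 1, with DESeq2 size factors 6 and 0, and with trans totals 8 and 0. In the runs, chr2:213400001-213450000, chr2:214800001-214850000, chr2:215150001-215200000 and chr2:215200001-215250000 were called in no other scaling. With near cis totals chr2:213400001-213450000 turned to -0.13, chr2:214800001-214850000 to -0.06 and chr2:215150001-215200000 to -0.19.

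BT483 had its longest run over nearly the same telomeric windows, 8 of them at chr2:214900001-215300000, with log2 changes of 0.52 to 0.73 over GM06990. Its other run was chr2:213000001-213150000, 3 windows in the centromeric flank, with 0.61 to 0.82. The window chr2:214900001-214950000 held 78 and 672 contacts in BT483, against 182 and 204 in GM06990. That was 1.11 and 1.18 times the expected count in BT483, against 0.675 and 0.714 times in GM06990, a log2 change of 0.73 ± 0.14 (edgeR adjusted p = 0.0020). The windows chr2:213050001-213100000, chr2:213100001-213150000, chr2:215000001-215050000 and chr2:215150001-215200000 changed by 0.82, 0.76, 0.70 and 0.64. Without BT483 replicate 2 the edgeR adjusted p of the first was 0.20 and of the third 0.069, without GM06990 replicate 1 that of the first was 0.057 and of the second 0.052, and without GM06990 replicate 2 that of the third was 0.073. With distance offsets the calls at chr2:214900001-214950000 and chr2:215150001-215200000 held without any 1 column. Among the other scalings, the 8 windows of their run were called higher with near cis totals only. With TMM factors the edgeR adjusted p of the named windows was 0.090 and 0.24, and with DESeq2 size factors 0.11 and 0.31. With the centromeric background it was 0.053 and 0.13. Trans totals called no window of all 605 in this comparison, so they cannot tell this run from others. At chr2:213500001-213550000 the change was 0.71 in BT483, with 1.28 and 1.58 times the expected count, against 0.796 and 1.03 times in GM06990.

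The 1 window called lower than in GM06990 in each comparison, which share the GM06990 columns, was chr2:213850001-213900000, the highest window of GM06990 replicate 2 but not of replicate 1. It held 45 and 394 contacts in BT483, 405 and 376 in SUM44, and 245 and 300 in GM06990. The log2 change was -0.57 ± 0.15 in BT483 (edgeR adjusted p = 0.012) and -0.45 ± 0.14 in SUM44 (edgeR adjusted p = 0.015). The call ended in BT483 without BT483 replicate 2 (edgeR adjusted p = 0.064) or GM06990 replicate 2 (0.11), and in SUM44 without SUM44 replicate 1 (0.15), SUM44 replicate 2 (0.069) or GM06990 replicate 2 (0.15). In SUM44 the change turned to 0.53 with trans totals (edgeR adjusted p = 0.48), a setting in which the median of all windows was 1.34.

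**Figure D5:**
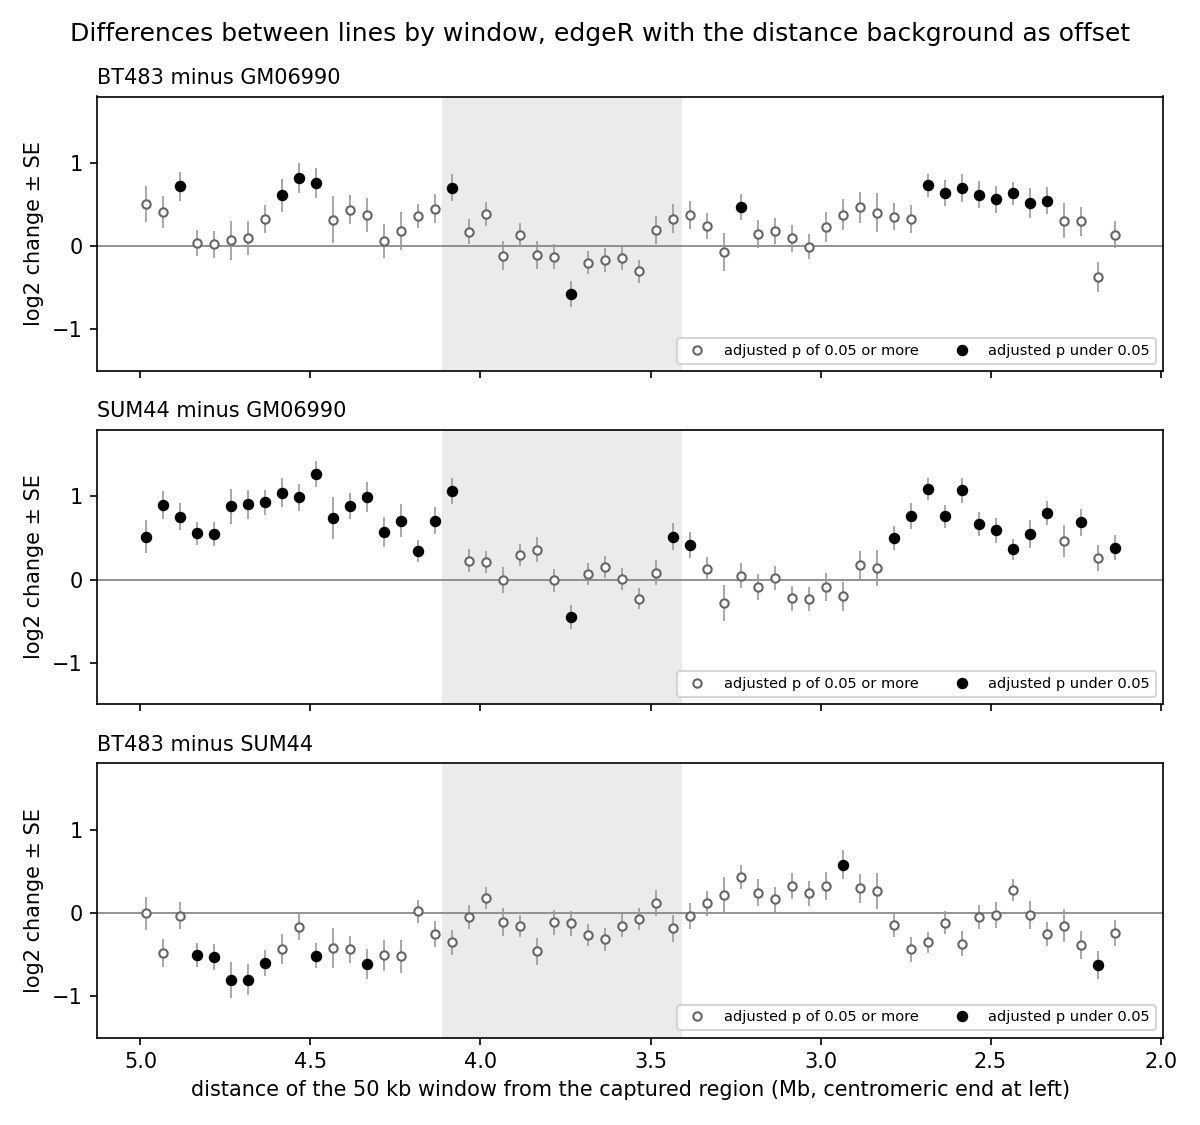
Log2 change of each 50 kb window with its SE for BT483 minus GM06990, SUM44 minus GM06990 and BT483 minus SUM44, by distance from the captured region in Mb. Filled points have an edgeR adjusted p under 0.05 with the distance background as offset, and the grey band is the raised block. Filled points above 0 in the top 2 panels lie mostly outside the band, and those below 0 in the bottom panel mostly at its centromeric side.

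Between the breast lines 9 windows differed, 1 higher and 8 lower in BT483 than in SUM44, which is 1.72% and 13.8%, beside 9.09% higher, 4.79% lower and 13.9% in either direction among all windows. Of the 8, 7 lay in the centromeric flank, 5 of them in 1 run at chr2:212750001-213000000 with log2 changes of -0.81 to -0.51. The strongest by adjusted p, chr2:212900001-212950000, held 67 and 321 contacts in BT483, against 809 and 613 in SUM44. That was 1.02 and 0.629 times the expected count in BT483, against 1.37 and 1.21 times in SUM44 (log2 change -0.81 ± 0.19, edgeR adjusted p = 0.017). The windows chr2:212850001-212900000, chr2:212950001-213000000, chr2:212750001-212800000 and chr2:215400001-215450000 changed by -0.81, -0.60, -0.51 and -0.62. The window higher in BT483, chr2:214650001-214700000, stood at 1.14 and 1.04 in BT483, against 0.749 and 0.676 in SUM44 (log2 change 0.58 ± 0.18, edgeR adjusted p = 0.047). These calls were the least stable when a column was left out. Calls among all 605 windows then fell too, except without BT483 replicate 1. The median change of the 58 windows lay between -0.20 and -0.16 in these fits, beside -0.16 with all columns. DESeq2 called 3, beside 41 higher and 26 lower among 534 windows. With near cis totals 41 windows were higher and 0 lower in BT483, beside 195 and 26 among all 605.

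Single fragments were thin evidence at this distance. Of the 960 fragments, 470 reached 50 contacts in at least 1 line and were tested. A fragment could enter through 1 line alone and the lines differ in depth, so the counts below are a description. In SUM44 86 were called higher and 3 lower than in GM06990, 89 in all, which is 18.3% higher, 0.638% lower and 18.9% in either direction. Among all 5466 tested it was 16.1% higher and 11.0% lower, or 27.0% in either direction. In BT483 17 were called higher and 3 lower than in GM06990, which is 3.62% higher, 0.638% lower and 4.26% in either direction. Among all it was 7.78% higher, 5.69% lower and 13.5% in either direction. Counted in either direction, calls were thus rarer in the stretch than among all fragments in both comparisons. Between BT483 and SUM44 0 were called, beside 0.274% of all. Without the minimum count BT483 had 30 higher and 1 lower of 959, beside 467 higher and 322 lower of all 9014. With at least 100 contacts 18 fragments remained, of which 0 were called in BT483 and 8 in SUM44. Among all 3378 fragments of that filter 406 were higher and 265 lower in BT483, and 762 and 477 in SUM44.

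The fragment chr2:213104592-213110018, in the flank window of the largest SUM44 change, held 33 and 38 contacts in SUM44, against 2 and 3 in GM06990 (log2 change 2.73 ± 0.53, edgeR adjusted p = 0.00069). The fragment chr2:215307461-215311119 held 5 and 29 contacts in BT483, 42 and 28 in SUM44, and 3 and 4 in GM06990. Its log2 change was 2.13 ± 0.55 in BT483 (edgeR adjusted p = 0.013) and 2.34 ± 0.49 in SUM44 (edgeR adjusted p = 0.0013). The other fragments named as highest by adjusted p had 1 to 8 contacts per column in GM06990, with log2 changes of 1.88 to 3.05 in SUM44 and 1.84 to 2.07 in BT483. Fragments lower than in GM06990 lay in the raised block. The fragment chr2:213885255-213889853 held 3 and 25 contacts in BT483, 28 and 22 in SUM44, and 22 and 31 in GM06990. That was 1.17 and 1.22 times the expected count in BT483, 1.37 and 1.25 times in SUM44, and 2.28 and 3.17 times in GM06990. Its log2 change was -1.16 ± 0.37 in BT483 and -1.05 ± 0.32 in SUM44, and that of its neighbour chr2:213879646-213882691 was -1.08 ± 0.36 and -0.97 ± 0.31. In BT483 the third was chr2:213901976-213906901, with a change of -1.15, and in SUM44 chr2:214100917-214103592, with -1.14. These lower calls rested on single columns. Those in BT483 were lost without BT483 replicate 2 (edgeR adjusted p of 0.17 to 0.64), either SUM44 replicate (0.084 to 0.089) or GM06990 replicate 1 (0.052 to 0.41), and 2 of the 3 without GM06990 replicate 2 (0.25 and 0.32). Those in SUM44 were lost without either SUM44 replicate (edgeR adjusted p of 0.074 to 0.20) or GM06990 replicate 2 (0.19 to 0.28). Of the higher calls named, the 5 in BT483 were lost without BT483 replicate 2 (edgeR adjusted p of 0.10 to 0.42) or GM06990 replicate 2 (0.077 to 0.23), 3 of them also without GM06990 replicate 1 (0.063 to 0.088), and of the 5 in SUM44 that of chr2:213262375-213266319 without GM06990 replicate 1 (edgeR adjusted p = 0.053).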

How the data were processed

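Capture Hi-C had been run on 3 cell lines, with the HindIII fragments of 6 regions captured. The authors deposited raw counts of ligated read pairs for each captured and target fragment, in a column for each replicate. CASAVA 1.8 and the build GRCh37 (hg19) are named, per the submitters' processing notes; the aligner is not given in the sources used here. Near cis contacts of 2q35 ranged from 26168 (BT483 replicate 1) to 353452 (SUM44 replicate 1).

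For each replicate and region, expected counts came from a negative binomial regression of pair counts, with a spline in log10 distance (cubic, 4 inner knots) and, for capture efficiency, the log of each captured fragment's trans contacts. Windows of 50 kb took fragments by midpoint. Fragments and windows with at least 50 contacts in 1 line were tested jointly over the 3 risk loci with edgeR 4.0.16 (quasi-likelihood F test, log expected counts as offset, all 6 columns, Benjamini-Hochberg, threshold 0.05), in R 4.3.3. A log2 change is the first line minus the second. DESeq2 1.42.0, other scalings, filters and left-out columns were alternatives. The script was tested on simulated data. Pairs were called per line on summed replicates. Tables were made in Python 3.11.15 with SciPy 1.17.1.

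The members, tests and lists were chosen with earlier results of these data known. Named were the 5 highest and 3 lowest windows over the lines, up to 5 windows and 5 fragments called in each direction per pair of lines with replicates that did not overlap, the 5 highest captured fragments and the 3 highest pairs. Contacts within captured regions were not used here.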

Additional observations from a re-analysis of the deposited data

How the results depend on the processing

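The direction of the windows and fragments of the stretch relative to GM06990 was not stable across scalings, and the cause was not tested. Called windows (58 tested; 15 in BT483 minus GM06990, 34 in SUM44 minus GM06990 and 9 in BT483 minus SUM44 with distance offsets) numbered 38, 25 and 41 with near cis totals, 4, 19 and 14 with TMM factors, 6, 24 and 20 with DESeq2 size factors, 0, 26 and 16 with trans totals, and 10, 29 and 1 with the background of the centromeric side alone, a setting chosen after the data had been seen. Among all 605 windows trans totals called 0 in BT483 minus GM06990, and 244 higher and 0 lower in SUM44 minus GM06990. Among all 5466 fragments they called 0 in BT483 minus GM06990, and 2958 higher and 1 lower in SUM44 minus GM06990. DESeq2's own test called 3 windows and a fit of all 6 regions 4 in BT483 minus SUM44. Called fragments (20, 89 and 0 with distance offsets) numbered 51, 38 and 13 with near cis totals, 29, 36 and 16 with TMM factors, 33, 36 and 14 with DESeq2 size factors, 0, 256 and 131 with trans totals, and 15 and 39 in the comparisons with GM06990 with the centromeric background. In windows, the majority turned to lower in BT483 minus GM06990 with TMM factors, DESeq2 size factors and the centromeric background and in SUM44 minus GM06990 with near cis totals and the centromeric background, and to higher in BT483 minus SUM44 with near cis totals and the centromeric background. For fragments of BT483 it turned with TMM factors (5 higher and 24 lower), DESeq2 size factors (5 and 28) and the centromeric background (5 and 10), and for fragments of SUM44 with near cis totals (16 and 22), DESeq2 size factors (16 and 20) and the centromeric background (17 and 22). With no minimum count 31 fragments were called in BT483 minus GM06990, beside 467 higher and 322 lower among all 9014, and 1 in BT483 minus SUM44, beside 18 and 16. With at least 100 contacts 0 and 8 were called in the comparisons with GM06990. Among all 3378 these were 406 higher and 265 lower, and 762 and 477. A fit of all 6 regions called 1 fragment in BT483 minus SUM44. DESeq2 gave no adjusted p to fragments of the stretch in the comparisons with GM06990, so that alternative has no count.

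Leaving out 1 column at a time gave 6 to 20 windows in BT483 minus GM06990, 22 to 38 in SUM44 minus GM06990 and 0 to 12 in BT483 minus SUM44, and 3 to 34, 23 to 126 and 0 to 7 fragments. The replicate numbers do not pair the samples: deviations of same-numbered columns over 605 windows correlated at 0.106, 0.0148 and -0.112. With the replicate block the windows numbered 15, 34 and 8 and the fragments 14, 79 and 0. Called windows turned in sign in 6 of 34 cases in SUM44 minus GM06990 and 6 of 9 in BT483 minus SUM44 with near cis totals, in 1 case each with trans totals, and in 6 and 0 with the centromeric background. Among the windows named for the lowest adjusted p in each direction there were 5 turns: with trans totals chr2:213850001-213900000 in SUM44 minus GM06990 (0.53) and chr2:214650001-214700000 in BT483 minus SUM44 (-0.30), and with near cis totals, in BT483 minus SUM44, chr2:212950001-213000000 (0.12), chr2:215400001-215450000 (0.18) and chr2:212750001-212800000 (0.16). Windows named as called in no other scaling turned too, in SUM44 minus GM06990. These were chr2:213400001-213450000 (-0.13 with near cis totals, -0.15 with the centromeric background), chr2:214800001-214850000 (-0.06 and -0.01) and chr2:215150001-215200000 (-0.19 and -0.10). The fragment chr2:213879646-213882691 turned in SUM44 minus GM06990 with trans totals (0.083).

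The stretch held 1.55% of all contacts outside the captured region in BT483, 2.18% in SUM44 and 1.10% in GM06990, and 51.9%, 62.4% and 42.6% of those at like distance on both sides. With the background of the centromeric side observed over expected was 0.999 in SUM44 and 1.04 in GM06990, levels that this fit holds near 1. The trans level was 1.09 in SUM44 and 1.07 in GM06990 relative to the mean window of chromosome 2. Relative to the median window of the same captured regions, it was in SUM44 1.40 from the risk loci alone and 1.32 from the other regions alone. At an adjusted p of 0.05, 1 pair was called in SUM44, and 12 with a Poisson background. Depth limited single fragments, with a median of 2 contacts in BT483 replicate 1, and single pairs, with at most 5 contacts.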
